A study of Homo sapiens with 24 samples.

Results

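The receptors of transforming growth factor beta (TGF-beta), activin and bone morphogenetic protein (BMP) were examined by RNA-seq in cells made to express 1 of 7 microRNAs (miRNAs). The 10 genes were TGFBR2, BMPR2, ACVR2A and ACVR2B (type II receptors), TGFBR1, ACVR1, ACVR1B, BMPR1A and BMPR1B (type I receptors) and TGFBR3 (a co-receptor). They were chosen by symbol, out of 29794 genes in the count tables, and TGFBR2 was included as a classic target of the seed of miR-302a. The 24 libraries came from Flp-In T-REx 293 cells, a line derived from human embryonic kidney. A lentiviral vector carried GFP with a miRNA hairpin in an intron, under a doxycycline-inducible cytomegalovirus promoter. All cells, the controls with an empty GFP vector included, received 1 µg/mL doxycycline for 7 days and 1 mg/mL geneticin for 6 days, so the comparisons are of sustained expression and not of an acute pulse. Batch 1 had 2 libraries for each of its 3 groups (miR-1, miR-122 and an empty vector). Batch 2 had 3 libraries for each of its 6 groups, which were another empty vector group, miR-302a with its relatives miR-372 and miR-373, and also miR-155 and miR-133a. Per the study's methods, replicates were transduced and maintained separately. The miRNAs themselves are not measured by these libraries.

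Ligands of the TGF-beta family bind a type II receptor kinase, which phosphorylates a type I receptor kinase, and the type I receptor then phosphorylates SMAD proteins that enter the nucleus. TGF-beta uses TGFBR2 with TGFBR1, activins use ACVR2A or ACVR2B with ACVR1B, and BMPs use BMPR2 or the activin type II receptors with ACVR1, BMPR1A or BMPR1B. TGFBR3, also called betaglycan, has no kinase and presents ligand to the other receptors. A miRNA guides Argonaute to mRNAs that pair with its seed, most often in the 3′UTR, and such mRNAs are destabilised.

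The mature sequences show which miRNAs can share targets. They are given here from RefSeq for the arm that usually acts, since the labels name no arm, with the seed (bases 2 to 8) in capitals.
miR-302a: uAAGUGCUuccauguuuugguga
miR-372: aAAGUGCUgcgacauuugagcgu
miR-373: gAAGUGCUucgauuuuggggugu
miR-133a: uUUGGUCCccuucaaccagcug
miR-155: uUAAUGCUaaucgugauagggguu
miR-1: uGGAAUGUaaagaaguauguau
miR-122: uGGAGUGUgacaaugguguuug
The first 3 miRNAs listed had an identical seed and are called the seed family below. Their 3 groups had the same doxycycline dose and time.

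TGFBR2 (chr3:30648093-30735634, plus strand, GRCh37) had 4 matches to the seed of the family in its longest annotated 3′UTR of 2543 bases. They are printed below with the match in capitals and upstream bases in lower case, 5′ to 3′ on the plus strand, because no receptor had more matches to this seed. A 7mer-m8 match pairs with bases 2 to 8 of the miRNA, a 7mer-A1 match pairs with bases 2 to 7 and is followed by A, and an 8mer has both features.
TGFBR2 7mer-m8, chr3:30733309-30733315: attgtcataggataagctgtgttAGCACTT
TGFBR2 7mer-m8, chr3:30733693-30733699: tgcaaaataatcattccctgcctAGCACTT
TGFBR2 7mer-A1, chr3:30734003-30734009: gttctttttttcatctttcccctGCACTTA
TGFBR2 8mer, chr3:30735514-30735521: tctttttatatcaaaagtctcaAGCACTTA
Of 13060 tested genes with an annotated 3′UTR in batch 2, 30.1% had at least 1 such match, 4.30% had an 8mer and 1.34% had 4 or more matches.

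BMPR2 (chr2:203241050-203432474, plus strand) had 3 matches to this seed in a 3′UTR of 8049 bases. A 7mer-m8 and a 7mer-A1 match are shown, since BMPR2 was the only other receptor with a match to this seed and a lower mRNA level.
BMPR2 7mer-m8, chr2:203426191-203426197: ctctgcatgttttttttaaataaAGCACTT
BMPR2 7mer-A1, chr2:203430205-203430211: accatcagaccaccagcaaatcgGCACTTA
At least 3 matches were found in 3.48% of the tested genes.

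ACVR2B (chr3:38495381-38534633, plus strand) had the longest 3′UTR of the receptors, 9810 bases, and matches to all 5 seeds. The matches to the seeds of miR-155 and of the seed family are printed because its mRNA was lower with miR-155 and higher with the family.
ACVR2B miR-155 8mer, chr3:38525593-38525600: gggaaggaccttgtggaggccgAGCATTAA
ACVR2B miR-155 7mer-m8, chr3:38528578-38528584: cctggcagtgagggaagatggtgAGCATTA
ACVR2B miR-302a, miR-372 and miR-373 7mer-m8, chr3:38528900-38528906: tcttgacataacttagacagcaaAGCACTT
TGFBR1 (chr9:101866320-101916474, plus strand) and TGFBR3 (chr1:92145900-92371892, minus strand) had no match to the seed of the family in their 3′UTRs of 4887 and 3396 bases. Their matches to the miRNAs with which they were lower follow, on the strand of the gene.
TGFBR1 miR-133a 7mer-m8, chr9:101913748-101913754: agatctgctttatgaaatccaggGGACCAA
TGFBR1 miR-155 7mer-A1, chr9:101912454-101912460: taagccactaaagaaatgaagtgGCATTAA
TGFBR3 miR-133a 7mer-m8, chr1:92149224-92149230: cagctcagctactgccaagggcaGGACCAA
TGFBR3 miR-133a 7mer-A1, chr1:92148531-92148537: acaggcctacagaaattgaaaatGACCAAA
TGFBR3 miR-1 7mer-m8, chr1:92148672-92148678: gcaccctgacaagtgttaaggcaACATTCC

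**Figure D1:**
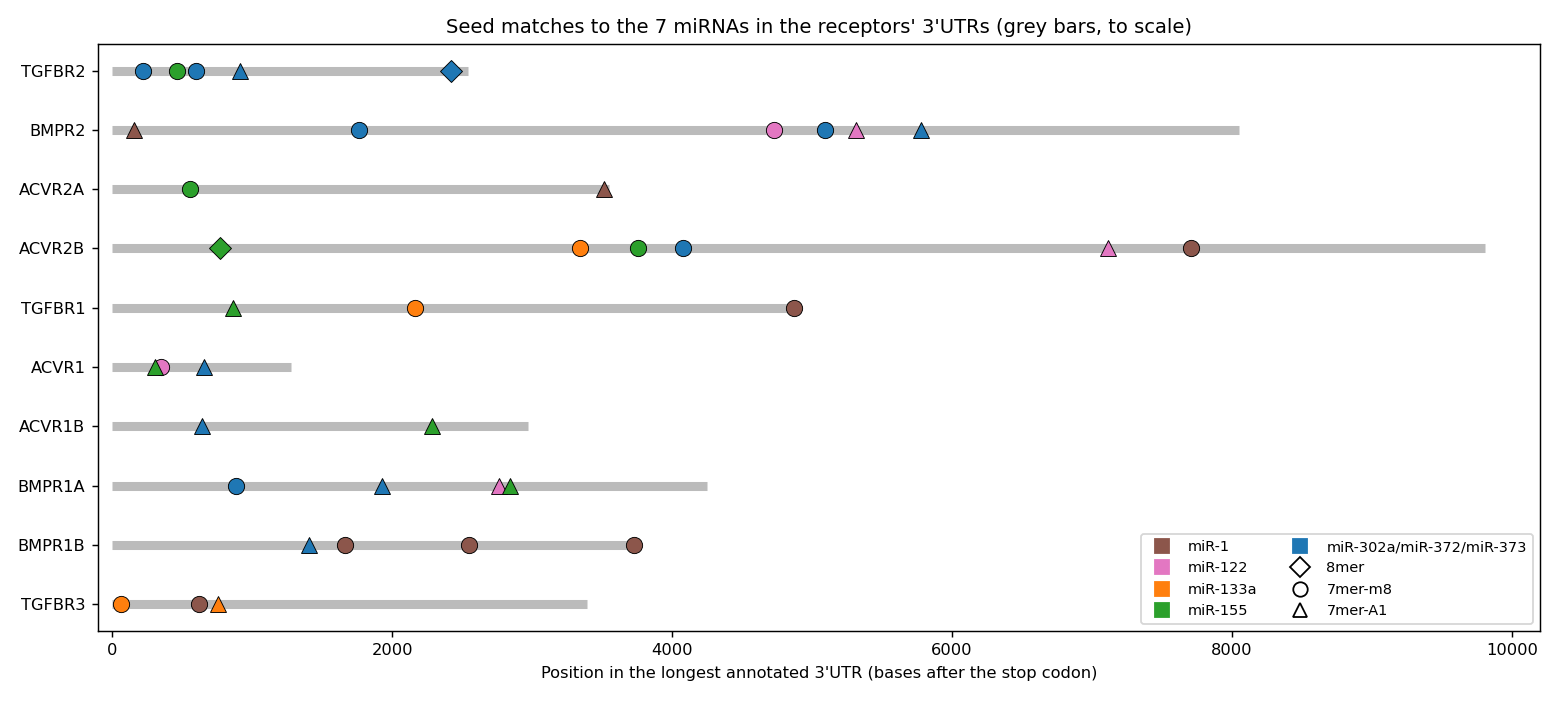
Positions of seed matches (symbols) along the longest annotated 3′UTR of each receptor (grey bars), in bases after the stop codon. Colours stand for the seed and shapes for the kind of match. TGFBR2 holds 4 matches to the seed of the family within 2543 bases, whereas TGFBR1, TGFBR3 and ACVR2A hold none.

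The libraries held 13047400 to 35040778 counts in batch 2 and 20153452 to 21595191 in batch 1, and all 10 receptors passed the filter on low counts in every comparison. Levels are CPM (counts scaled to the library size after TMM normalization), and the groups of a batch were compared by the quasi-likelihood test of edgeR, adjusted by Benjamini-Hochberg over all genes tested (14348 in batch 1, 14054 in batch 2), with a threshold of 0.05. A gene is said to be lower, higher, to fall or to rise only where it passed. Replicate 2 stood apart in 3 groups of batch 2. Its chi-square per degree of freedom against the other replicates, which also grows with depth, was 18.9 and 21.4 with miR-155, 16.1 and 16.6 with miR-302a and 17.5 and 35.7 with miR-372, whereas the other 2 replicates differed from each other by 2.46, 3.77 and 7.06. Results were therefore also computed with these 3 libraries left out together, an alternative chosen after seeing the data, and are given where a call changed or was near the threshold. The 5 comparisons of batch 2 share the same 3 empty vector libraries, and both comparisons of batch 1 share 2. Of genes looked at as usual for the line, VIM had 908 to 1310 CPM, KRT8 176 to 297 CPM and KRT18 79.6 to 121 CPM. PAX2 had 5.28 to 13.8 CPM, WT1 6.33 to 11.03 CPM and NEFM only 1.26 to 4.42 CPM. The cells had at most 0.407 CPM of the liver, blood and muscle markers ALB, APOA1, CD3E, PTPRC, CKM and MYH7. Of the other markers looked at, the muscle actin ACTA1 reached 1.21 CPM, the endothelial VWF 1.22 CPM, COL3A1 5.93 CPM and COL1A1 25.7 CPM. In these bulk samples, fewer cells that express a gene and less RNA per cell cannot be told apart.

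To compare receptors with each other, levels in empty vector cells were divided by exon length (RPKM). ACVR1B, the activin type I receptor, had the highest level per length, at 12.2 ± 1.22 RPKM (SD, n = 3) in batch 2 and 12.99 ± 0.148 RPKM (SD, n = 2) in batch 1. TGFBR1 followed at 7.45 ± 0.291 RPKM in batch 2 and TGFBR3 at 6.92 ± 0.474 RPKM, and the libraries of these 2 genes overlapped. ACVR2B (6.17 ± 0.285 RPKM) and BMPR2 (6.14 ± 0.437 RPKM) also overlapped. TGFBR2 stood lower, at 3.99 ± 0.204 RPKM in batch 2 and 4.59 ± 0.289 RPKM in batch 1. ACVR1 (3.14 ± 0.194 RPKM) and BMPR1A (2.93 ± 0.0818 RPKM) overlapped, ACVR2A was at 2.64 ± 0.192 RPKM and BMPR1B had the lowest level, at 1.94 ± 0.362 RPKM. The type II receptor for TGF-beta was thus below its type I partner per length in each of the 5 control libraries. The order was the same in batch 1, apart from ACVR2B and BMPR2, which changed places and overlapped there too. TGFBR3 and BMPR2 also overlapped in batch 1. The order depends on the deposited exon lengths. That of BMPR1A was 11255 bases, whereas the transcript searched for matches had a 3′UTR of 4250 and a coding sequence of 1599 bases. BMPR1A may therefore stand too low here.

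**Figure D2:**
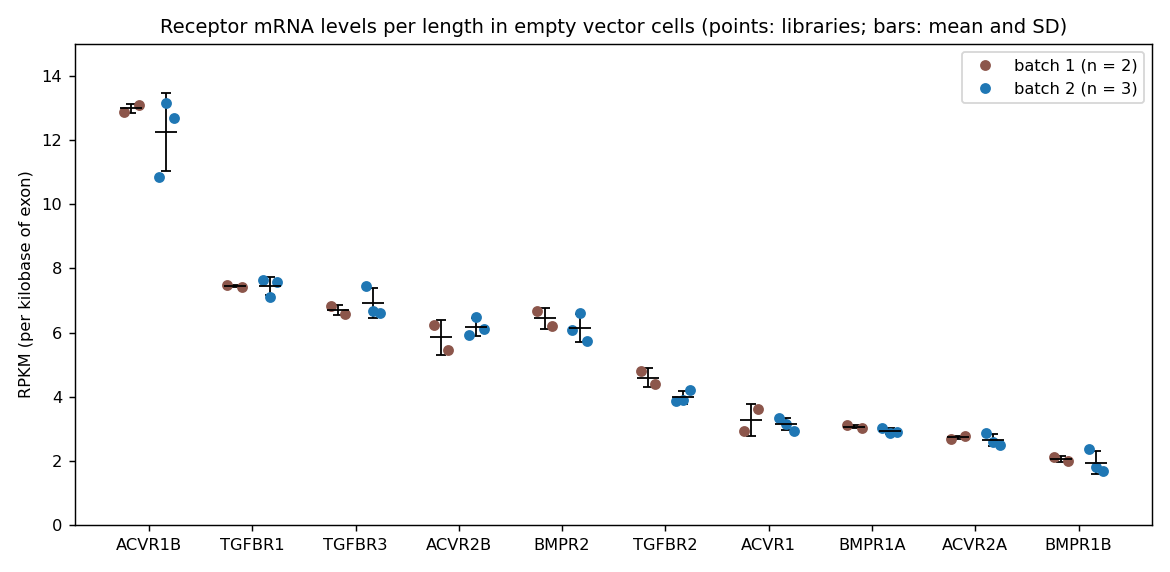
RPKM (CPM per kilobase of exon) of each receptor in empty vector cells, with libraries as points and mean ± SD as bars, in batch 1 (n = 2) and batch 2 (n = 3). ACVR1B lies above the other receptors, at 12.2 RPKM in batch 2, and BMPR1B lies lowest at 1.94 RPKM.

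TGFBR2, the type II receptor for TGF-beta, had about 18 to 20 CPM in batch 2 unless the cells expressed a miRNA of the seed family. The empty vector libraries had 18.2, 18.3 and 19.9 CPM. The miR-302a libraries had 8.56, 7.67 and 9.15 CPM, the miR-372 libraries 8.49, 8.38 and 10.0044 CPM, and the miR-373 libraries 9.34, 10.4 and 9.76 CPM. All 9 libraries of the seed family therefore lay below all 3 control libraries, with a wide gap. With miR-133a the level was 19.2, 18.1 and 19.3 CPM, and with miR-155 it was 18.0059, 17.7 and 19.5 CPM, which overlapped the controls. TGFBR2 fell to 45.0% of the control with miR-302a (log2 fold change -1.15, 95% interval -1.37 to -0.93, adjusted p = 1.41e-06, edgeR), to 48.1% with miR-372 (log2 fold change -1.05, -1.27 to -0.84, adjusted p = 2.09e-06) and to 52.5% with miR-373 (log2 fold change -0.93, -1.14 to -0.72, adjusted p = 1.16e-05). These were the largest changes of any receptor with any of the 7 miRNAs. Without each library in turn, the log2 fold change ranged from -1.21 to -1.08 with miR-302a, from -1.15 to -1.01 with miR-372 and from -0.97 to -0.89 with miR-373, and each call held.

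TGFBR2 also has a 7mer-m8 match to the seed of miR-155 in its 3′UTR, and its log2 fold change with miR-155 was -0.03 (95% interval -0.23 to 0.18, adjusted p = 0.907, edgeR). With miR-133a it was 0.0068 (-0.20 to 0.22, adjusted p = 0.977). In batch 1 the empty vector libraries had 22.6 and 20.7 CPM of TGFBR2, the miR-1 libraries 22.4 and 19.9 CPM and the miR-122 libraries 21.2 and 22.9 CPM. The 3 groups overlapped, and the log2 fold changes of -0.03 (adjusted p = 0.837) with miR-1 and 0.03 (adjusted p = 0.893) with miR-122 did not pass. The 95% intervals were -0.20 to 0.14 and -0.14 to 0.20.

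BMPR2, the main type II receptor for BMPs, moved in the same direction as TGFBR2 with the seed family, by less. The empty vector libraries had 69.6, 75.8 and 65.9 CPM. With miR-302a the libraries had 47.9, 51.5 and 49.0452 CPM, with miR-372 they had 50.7, 39.5 and 50.6 CPM, and with miR-373 they had 51.2, 51.9 and 49.8 CPM. No library of the family overlapped the controls. BMPR2 fell to 70.3% of the control with miR-302a (log2 fold change -0.51, 95% interval -0.69 to -0.32, adjusted p = 0.00120, edgeR), to 66.8% with miR-372 (-0.58, -0.77 to -0.40, adjusted p = 0.000281) and to 72.3% with miR-373 (-0.47, -0.65 to -0.28, adjusted p = 0.00316). These calls held without each library in turn. With miR-155 the libraries had 79.2, 79.5 and 86.6 CPM, all above the controls, but the log2 fold change of 0.21 (0.032 to 0.40) did not pass (adjusted p = 0.139). With the 3 libraries that stood apart left out, it was 0.23 and just missed the threshold (adjusted p = 0.0535, edgeR). With miR-133a the levels of 66.8, 60.0 and 62.9 CPM overlapped the controls.

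ACVR2B, a type II receptor for activins, GDF11 and myostatin, passed with 5 of the 7 miRNAs, as TGFBR3 did, and its direction differed among them. The empty vector libraries of batch 2 had 69.8, 76.5 and 72.3 CPM. The miR-155 libraries had 59.4, 38.6 and 58.4 CPM, all below the controls, with replicate 2 far below the other 2. The miR-302a libraries had 94.7, 99.2 and 100.5 CPM, the miR-372 libraries 98.2, 82.3 and 116 CPM, and the miR-373 libraries 90.8, 100.8 and 103 CPM, all above the controls. ACVR2B rose to 135% of the control with miR-302a (log2 fold change 0.43, 95% interval 0.16 to 0.70, adjusted p = 0.0472, edgeR) and to 136% with miR-372 (0.44, 0.18 to 0.71, adjusted p = 0.0312). With miR-373 the log2 fold change was 0.43 (0.16 to 0.70), with an adjusted p of 0.0585, which did not pass, although it passed with DESeq2 (adjusted p = 0.0247), the likelihood ratio test (0.0233), no filter (0.00323), a fit of only the groups compared (0.00177) and the replicate block (0.0293). These calls were near the threshold. The call for miR-302a was lost without any of its 6 libraries (adjusted p of 0.0632 to 0.146) and when only genes above 1 CPM throughout were kept (adjusted p = 0.0529), and the call for miR-372 was lost without any of its 6 libraries other than miR-372 replicate 2 (adjusted p of 0.0579 to 0.107). With replicate 2 of miR-155, miR-302a and miR-372 left out together, ACVR2B passed with all 3 miRNAs of the family (log2 fold changes of 0.42, 0.56 and 0.43, adjusted p = 0.000820, 3.60e-05 and 0.000281).

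With miR-155, ACVR2B fell to 71.7% of the control (log2 fold change -0.48, 95% interval -0.76 to -0.21, adjusted p = 0.0308, edgeR). The log2 fold change was -0.31 (adjusted p = 0.142) without miR-155 replicate 2, and again -0.31 (adjusted p = 0.0247) with the 3 libraries that stood apart left out together. The call was also lost without empty vector replicate 1, 2 or 3 (adjusted p = 0.0543, 0.115 and 0.0760) and in a fit of only the groups compared (adjusted p = 0.0707). With miR-133a, whose seed has a 7mer-m8 match in the ACVR2B 3′UTR, the libraries had 73.8, 65.0129 and 70.9 CPM and overlapped the controls (log2 fold change -0.06, -0.33 to 0.21, adjusted p = 0.836). In batch 1, ACVR2B had 73.7 and 64.5 CPM with the empty vector, 84.2 and 86.1 CPM with miR-1, and 80.2 and 78.0 CPM with miR-122. It rose by 0.30 on the log2 scale with miR-1 (0.18 to 0.42, adjusted p = 0.000660), a call that held without each library in turn, and by 0.19 with miR-122 (0.076 to 0.31, adjusted p = 0.0478). The call for miR-122 was lost without empty vector replicate 2 (log2 fold change 0.10, adjusted p = 0.280), without miR-122 replicate 1 or 2 (adjusted p = 0.326 and 0.146), with DESeq2 (adjusted p = 0.187), in a fit of only the groups compared (adjusted p = 0.0613) and with the replicate number as a block (adjusted p = 0.0711).

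ACVR2A, the other activin type II receptor, passed the test with none of the 7 miRNAs. Its group means lay between 14.4 and 16.4 CPM in batch 2 and between 14.7 and 16.97 CPM in batch 1, and its largest log2 fold change was 0.12, with miR-122 (95% interval -0.063 to 0.30, adjusted p = 0.495, edgeR). Its 3′UTR has no match to the seed family, to miR-122 or to miR-133a.

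TGFBR1, the type I receptor that signals with TGFBR2, fell with the 2 miRNAs of batch 2 outside the seed family. Its levels were 52.4, 48.7 and 51.9 CPM with the empty vector, 41.1, 34.0022 and 35.1 CPM with miR-133a, and 41.8, 40.2 and 42.7 CPM with miR-155. Neither of these groups overlapped the controls, though they overlapped each other. TGFBR1 fell to 72.0% of the control with miR-133a (log2 fold change -0.47, 95% interval -0.64 to -0.31, adjusted p = 0.000736, edgeR), and this call held without each library in turn. It fell to 81.6% with miR-155 (-0.29, -0.46 to -0.13, adjusted p = 0.0253), and this call was lost without empty vector replicate 1 or 3 (adjusted p = 0.0779 and 0.0910), without miR-155 replicate 1 or 2 (0.0656 and 0.104), with the 3 libraries that stood apart left out (0.0520), with no filter (0.0625) and in a fit of only the groups compared (0.0606).

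With the seed family, TGFBR1 was at 52.0 to 56.7 CPM with miR-302a, 55.6 to 56.0 CPM with miR-372 and 52.7 to 58.7 CPM with miR-373. Its log2 fold changes of 0.10, 0.13 and 0.13 did not pass (adjusted p = 0.439, 0.287 and 0.401, edgeR). In batch 1 the libraries had 51.1 and 50.8 CPM with the empty vector, 51.7 and 51.8 CPM with miR-122, and 59.4 and 61.6 CPM with miR-1. TGFBR1 rose by 0.25 on the log2 scale with miR-1 (95% interval 0.14 to 0.36, adjusted p = 0.00183), although its 3′UTR has a 7mer-m8 match to the seed of miR-1, near the end of the annotated 3′UTR.

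ACVR1B, the activin type I receptor, rose with miR-1, from 73.3 and 74.5 CPM to 80.1 and 82.4 CPM (log2 fold change 0.14, 95% interval 0.037 to 0.23, adjusted p = 0.0423, edgeR). The call was lost without empty vector replicate 1 or miR-1 replicate 1 or 2 (adjusted p = 0.109, 0.113 and 0.216), with DESeq2 (0.172), with no filter (0.0613), in a fit of only the groups compared (0.0548) and with the replicate block (0.0748). With miR-133a its libraries had 56.9, 58.8 and 63.3 CPM against 61.8, 74.9 and 72.2 CPM in the controls, and the log2 fold change of -0.22 (-0.42 to -0.030) did not pass (adjusted p = 0.177). With the 3 libraries that stood apart left out, it was again -0.22 and just missed the threshold (adjusted p = 0.0540, edgeR).

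The 3 BMP type I receptors passed the test with none of the 7 miRNAs. ACVR1 had group means of 11.7 to 14.4 CPM, and its largest log2 fold change was 0.24 with miR-372 (95% interval 0.021 to 0.47, adjusted p = 0.148, edgeR). BMPR1A had group means of 32.2 to 35.3 CPM and log2 fold changes within 0.10 of 0, with matches to the seed of the family at 2 places in its 3′UTR. BMPR1B had 110 to 362 counts per library with the seed family, and group means of 9.46 to 10.4 CPM there against 12.2 CPM with the empty vector. Its log2 fold changes of -0.28, -0.36 and -0.23 with miR-302a, miR-372 and miR-373 did not pass (adjusted p = 0.217, 0.0871 and 0.389). The interval for miR-372 was -0.65 to -0.084. The miR-372 libraries, at 8.61 to 9.91 CPM, all lay below the controls, at 10.6 to 14.9 CPM. BMPR1B has 3 matches of the 7mer-m8 kind to the seed of miR-1, and its log2 fold change with miR-1 was -0.13 (-0.35 to 0.084, adjusted p = 0.378). Some reads of ACVR1 may be shared with AC013731.1, which overlaps it on the same strand.

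TGFBR3, the co-receptor, was higher with the seed family and lower with miR-133a and miR-1. The empty vector libraries of batch 2 had 52.8, 47.3 and 46.8 CPM. The miR-302a libraries had 60.1, 67.1 and 66.2 CPM, the miR-372 libraries 59.6, 69.2 and 68.8 CPM and the miR-373 libraries 58.0, 62.5 and 63.6 CPM, all above the controls. TGFBR3 rose to 132% of the control with miR-302a (log2 fold change 0.40, 95% interval 0.23 to 0.56, adjusted p = 0.00349, edgeR), to 135% with miR-372 (0.43, 0.27 to 0.59, adjusted p = 0.00144) and to 126% with miR-373 (0.33, 0.17 to 0.49, adjusted p = 0.0175). The calls for miR-302a and miR-372 held without each library in turn. The call for miR-373 was lost without empty vector replicate 2 or 3 (adjusted p = 0.0911 and 0.0945) and without miR-373 replicate 2 or 3 (0.0632 and 0.0912).

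With miR-133a, TGFBR3 had 38.2, 40.0 and 41.5 CPM, all below the controls, and fell to 81.6% of their level (log2 fold change -0.29, 95% interval -0.46 to -0.13, adjusted p = 0.0372, edgeR). This call was lost without any of the 6 libraries (adjusted p of 0.0627 to 0.168) and with no filter (0.0743), but passed with the 3 libraries that stood apart left out (0.0128). With miR-155 it had 54.5, 53.8 and 56.2 CPM, above the controls in each library, and a log2 fold change of 0.16 that did not pass (adjusted p = 0.212). In batch 1 it had 48.2 and 46.6 CPM with the empty vector, 50.6 and 54.4 CPM with miR-122 (log2 fold change 0.15, adjusted p = 0.142), and 38.9 and 39.0301 CPM with miR-1. It fell to 82.2% with miR-1 (-0.28, -0.41 to -0.16, adjusted p = 0.00151), and this call held without each library in turn.

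**Figure D3:**
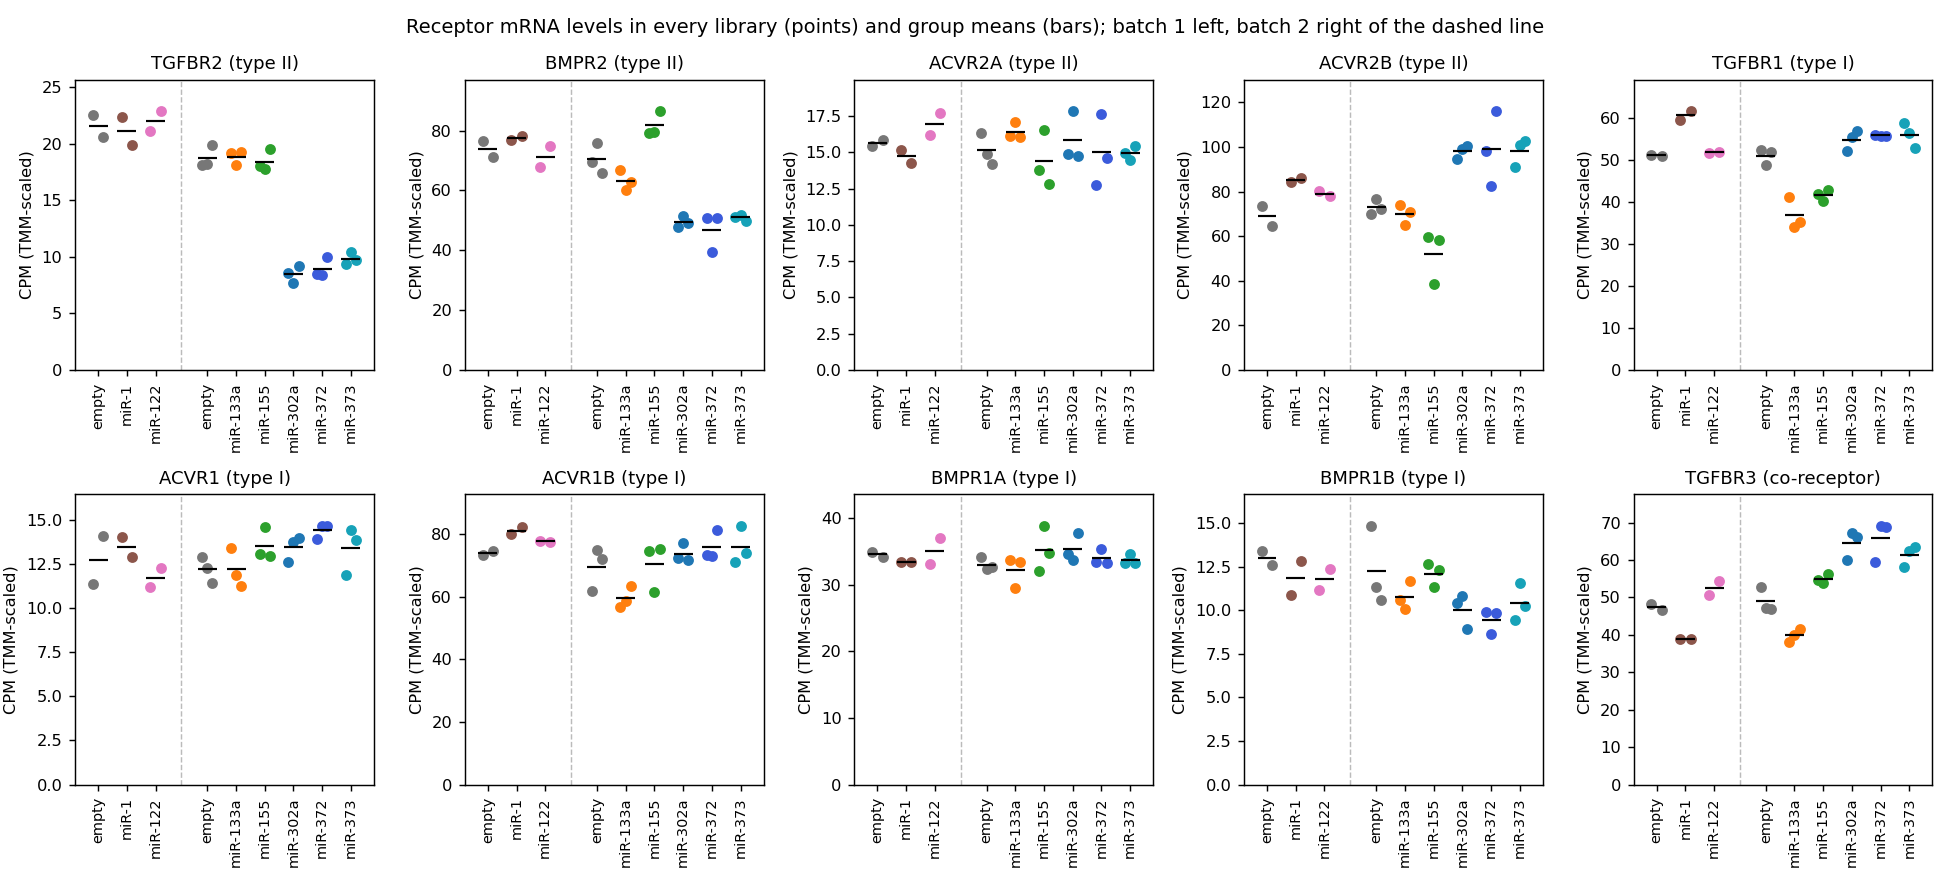
CPM of each receptor in every library (points) with the group mean (bar), batch 1 to the left and batch 2 to the right of the dashed line, each axis starting at 0. TGFBR2 lies between 7.67 and 10.4 CPM in the 9 libraries of the seed family and at 17.7 CPM or above in the other libraries of batch 2, and BMPR2 is lower and ACVR2B and TGFBR3 are higher in the same 9 libraries.

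Counted over the 10 receptors, 2 passed in each direction with miR-302a, where 4.85% of all genes tested were lower and 3.02% higher. The same counts held for miR-372, for which the background was 6.56% and 4.82% in the same order. For miR-373 there were 2 lower and 1 higher receptor, beside 3.3% and 1.83%. With miR-133a, 2 receptors were lower and 0 higher, beside 3.97% and 1.37%, and with miR-155 the counts were also 2 and 0, beside 4.81% and 2.82%. For these counts of 0 in edgeR, the number of receptors higher at an unadjusted p under 0.05 was 0 with miR-133a and 1 (BMPR2) with miR-155, and DESeq2 called 2 receptors with each miRNA. With miR-1, 1 receptor was lower and 3 were higher, beside 13.7% and 10.8%, so that the count of lower receptors was near the background. With miR-122, 0 receptors were lower and 1 was higher in edgeR, beside 4.06% and 1.86%. For miR-122, 2 receptors had an unadjusted p under 0.05, both of them higher, and DESeq2 called 0. The median log2 fold change of the 10 receptors lay between -0.11 (miR-133a) and 0.09 (miR-302a), and that of all genes tested lay within 0.01 of 0.

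**Figure D4:**
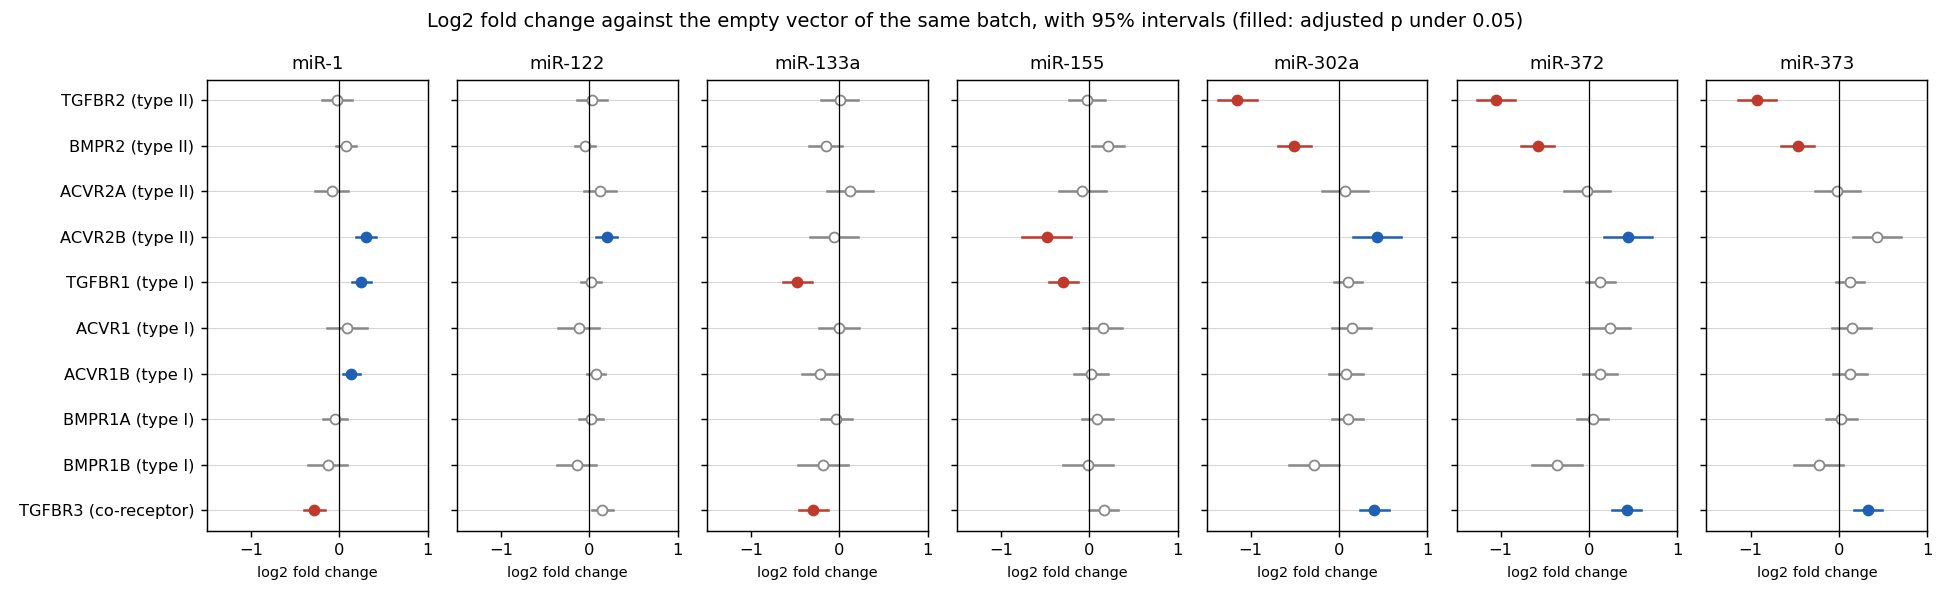
Log2 fold change of each receptor against the empty vector of the same batch (points) with 95% intervals (lines), with a panel per miRNA. Filled points passed the adjusted threshold of 0.05, in red for lower and blue for higher, and TGFBR2 with miR-302a, miR-372 and miR-373 lies farthest from 0, at -1.15, -1.05 and -0.93.

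Matches and changes were set side by side for the 70 pairs of a receptor and a miRNA. A 3′UTR match to the seed was found in all 11 pairs with a lower call, in 5 of 9 pairs with a higher call and in 25 of 50 pairs that did not pass. Since miR-302a, miR-372 and miR-373 share their matches and controls, these pairs are not independent. Matches were thus also common where the mRNA did not fall. Among all tested genes with a 3′UTR, a match was found in 58.6% of those lower with miR-302a and in 28.95% of those that did not pass, and in 58.8% of those lower with miR-133a, 67.2% of those lower with miR-155 and 43.96% of those lower with miR-1. ACVR2B was higher with miR-302a, miR-1 and miR-122 in the presence of a match to each, whereas the 3′UTR of TGFBR3, which rose with the seed family, had no match to it.

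The 3 miRNAs of the seed family, which differ outside the seed, were compared directly with each other. None of the 10 receptors passed in any of the 3 pairs (edgeR, 0 at an unadjusted p under 0.05, and 0 with DESeq2), nor did any of all genes tested in edgeR (0%), of which 0.868%, 1.31% and 1.11% had an unadjusted p under 0.05 for miR-302a against miR-372, miR-302a against miR-373 and miR-372 against miR-373. Among all genes, DESeq2 called 0, 3 and 1 in the same order and the likelihood ratio test called 1, 3 and 1. With the 3 libraries that stood apart left out, edgeR called 4 lower and 4 higher genes for miR-302a against miR-373. It called 0 for both other pairs. Of 14184 genes tested there, 1008, 2140 and 272 had an unadjusted p under 0.05, in the same order. How alike the 3 miRNAs appeared among all genes therefore depended on these libraries. The closest receptor was TGFBR2, and each of its miR-302a libraries lay below each of its miR-373 libraries. The log2 difference of -0.22 (95% interval -0.45 to 0.0026, unadjusted p = 0.0525, edgeR) did not pass. For TGFBR2 the intervals of the other pairs were -0.33 to 0.13 (miR-302a against miR-372) and -0.35 to 0.096 (miR-372 against miR-373). For BMPR2 they were -0.11 to 0.26, -0.23 to 0.14 and -0.30 to 0.072 in the same order of pairs as above. Over all 10 receptors the limits reached -0.45 and 0.37, so differences of up to this size between these miRNAs are not resolved by these libraries.

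The mean of the seed family was then compared with the empty vector. TGFBR2 fell by 1.05 on the log2 scale (95% interval -1.22 to -0.88, adjusted p = 4.76e-08, edgeR) and BMPR2 fell by 0.52 (-0.67 to -0.37, adjusted p = 4.95e-05). TGFBR3 rose by 0.39 (0.25 to 0.52, adjusted p = 0.000497) and ACVR2B by 0.43 (0.21 to 0.66, adjusted p = 0.00987). ACVR2B missed the threshold without empty vector replicate 1 (adjusted p = 0.0640). Thus 2 of 10 receptors were lower and 2 higher, beside 9.11% and 6.28% of all genes. BMPR1B, at -0.29 (-0.52 to -0.066), did not pass (adjusted p = 0.0753), but did with the 3 libraries that stood apart left out (adjusted p = 0.0499).

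A comparison that does not use the empty vector libraries set the mean of the seed family against the mean of miR-133a and miR-155. TGFBR2 (log2 difference -1.04, 95% interval -1.17 to -0.90, adjusted p = 1.04e-09, edgeR) and BMPR2 (-0.55, -0.67 to -0.43, adjusted p = 6.80e-07) were lower with the seed family. TGFBR1 (0.50, 0.40 to 0.61), TGFBR3 (0.45, 0.34 to 0.56), ACVR2B (0.71, 0.53 to 0.88) and ACVR1B (0.21, 0.089 to 0.34) were higher, with adjusted p of 4.85e-07, 2.36e-06, 4.61e-06 and 0.0115. These 2 lower and 4 higher receptors stand beside 13.5% and 14.3% of all genes. With miR-133a and miR-155 themselves, TGFBR1 was at 72.0% and 81.6% of the control and ACVR2B at 95.9% and 71.7%. ACVR1B was at 85.6% and 101% of the control, and neither change passed. With the mean of the seed family against the empty vector, its log2 fold change of 0.11 did not pass either (adjusted p = 0.339, edgeR). Each of the 6 calls held without each library in turn.

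In batch 1, miR-1 was compared with miR-122. TGFBR3 was lower with miR-1, by a log2 difference of -0.43 (95% interval -0.55 to -0.31, adjusted p = 1.31e-05, edgeR), and TGFBR1 was higher, by 0.23 (0.12 to 0.33, adjusted p = 0.00263). These are 1 lower and 1 higher receptor of 10, beside 16% and 15.2% of all genes. ACVR2B, which rose with both miRNAs, had a log2 difference of 0.11 (-0.0093 to 0.22) that did not pass (adjusted p = 0.155). BMPR2 had a difference of 0.12 (adjusted p = 0.102) and passed in a fit of only the groups compared (adjusted p = 0.0483) and without miR-122 replicate 2 (log2 difference 0.19, adjusted p = 0.0485).

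Genes whose levels followed that of TGFBR2 were sought among 12680 genes of batch 2, by the Pearson correlation of log2 CPM over the 18 libraries. The 5 most alike were ERAP2 (r = 0.977), MAN1A1 (r = 0.973), MAP2 (r = 0.972), TAPBP (r = 0.969) and GALNT3 (r = 0.968). The libraries fall into groups and the 9 libraries of the seed family are low for all 5, so r here describes mainly the difference between groups. Having been chosen this way, they necessarily differ between these groups, and their log2 fold changes with the mean of the seed family, from -1.82 (ERAP2, a peptidase that trims antigenic peptides) to -0.73 (MAN1A1), are given without a test. In batch 1, which the choice did not use, TGFBR2 passed with neither miRNA. Of the 5, only MAP2 likewise passed with neither (log2 fold change -0.12 with miR-1 and -0.11 with miR-122, adjusted p = 0.511 and 0.666, edgeR). There, 4 of the 5 were lower with miR-1, beside 13.7% of all genes tested. These were ERAP2 (log2 fold change -0.50, SE 0.066, adjusted p = 2.10e-05, edgeR) and, by less, GALNT3, MAN1A1 and TAPBP (-0.17, -0.16 and -0.16, adjusted p = 0.0426, 0.0184 and 0.0488). GALNT3 was lower with miR-122 (-1.43, SE 0.069, adjusted p = 9.91e-12) whereas ERAP2 and TAPBP were higher with it (0.22 and 0.31, adjusted p = 0.0367 and 0.000793), beside 4.06% lower and 1.86% higher of all genes. GALNT3 had 2 matches to the seed of the family in its 3′UTR, ERAP2 and MAN1A1 had 1 each, and MAP2 and TAPBP had 0.

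The rest of the pathway was followed in 6 lists, to be read against the shares of all genes given above and a median log2 fold change of all genes within 0.01 of 0. Of 93 list genes tested in batch 2, 15 were lower and 4 higher with the mean of the seed family, 9 lower and 5 higher with miR-155 and 4 lower and 0 higher with miR-133a, and of 94 tested in batch 1, 13 were lower and 11 higher with miR-1 and 4 lower and 7 higher with miR-122. For the list genes, the calls printed with an SE passed under every alternative that was run. This refers to the comparison named with each call, and not to the single miRNAs behind the mean of the seed family. Among the other receptors and co-receptors (8 tested), 1 was lower and 1 higher with the seed family (median log2 fold change -0.05), and AMHR2, the type II receptor of anti-Müllerian hormone, rose by 0.90 on the log2 scale (SE 0.15, adjusted p = 0.000428, edgeR), from 4.29 ± 0.705 CPM (SD, n = 3) to between 7.61 and 8.37 CPM in the group means. NRP1, a co-receptor of several growth factors, was lower with miR-133a (log2 fold change -0.49, SE 0.093, adjusted p = 0.00313) and was the only gene of these 8 to pass there.

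Of 19 ligands tested, 1 was lower and 0 higher with the mean of the seed family (median log2 fold change -0.07). This was GDF11, a ligand of ACVR2B and ACVR2A, which fell by 0.70 on the log2 scale (SE 0.072, adjusted p = 2.44e-06, edgeR), from 63.2 ± 3.47 CPM (SD, n = 3) to 38.8 ± 3.72 CPM with miR-302a, 38.0 ± 2.54 CPM with miR-372 and 40.1 ± 2.11 CPM with miR-373. GDF7, a BMP-like ligand, was the ligand that was lower with miR-155 (-1.15, SE 0.23, adjusted p = 0.00436). With miR-1, 3 ligands were lower and 1 was higher, AMH, the ligand of AMHR2 (0.33, SE 0.063, adjusted p = 0.000708). Of 15 extracellular modulators, 4 were lower and 1 higher with the seed family (median -0.21), and FST, the activin antagonist follistatin, fell by 0.96 (SE 0.18, adjusted p = 0.00136), from 3.59 ± 0.531 CPM to between 1.75 and 1.93 CPM in the group means. FST also passed with each miRNA of the family alone. The call held in all 14 alternatives for miR-372, and was lost in 4 of 14 for miR-302a and in 3 of 14 for miR-373. FSTL1, a follistatin-like secreted protein, was lower with miR-133a (-0.43, SE 0.078, adjusted p = 0.00224). Other comparisons in which FSTL1 was lower included miR-122 (-0.20, adjusted p = 0.00224, edgeR), miR-372 (-0.28, adjusted p = 0.0255) and the mean of the seed family (-0.24, adjusted p = 0.0148). Each of these further calls was lost under at least 1 alternative.

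Of the 8 SMADs, which carry the signal from the type I receptors to the nucleus, 2 were lower and 0 higher with the seed family (median log2 fold change -0.06). SMAD9, a BMP-responsive SMAD, fell by 0.27 on the log2 scale (SE 0.058, adjusted p = 0.00355, edgeR). For the single miRNAs of the family, it was lower with miR-302a and miR-372 but did not pass with miR-373. The call for miR-302a was lost in 7 of 14 alternatives, and that for miR-372 held in all 14. With miR-155, 3 SMADs were lower (median -0.21), among them SMAD5 (-0.93, SE 0.086, adjusted p = 1.18e-06), from 202 ± 8.87 CPM (SD, n = 3) to 106 ± 14.2 CPM, and SMAD9 (-0.47, SE 0.073, adjusted p = 0.000409). Of 23 intracellular regulators, 4 were lower and 1 higher with miR-155 (median -0.04), including SKI, a repressor of SMAD activity (-0.90, SE 0.094, adjusted p = 4.87e-06), and TAB2, an adaptor of the kinase TAK (-0.59, SE 0.070, adjusted p = 1.76e-05). SMURF2, a ubiquitin ligase for the receptors, was lower with miR-122 (-0.56, SE 0.077, adjusted p = 6.29e-05).

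Of 21 response genes tested, which SMADs are known to regulate, 5 were lower and 1 higher with the mean of the seed family (median log2 fold change 0.03). CDKN2B, a cell-cycle inhibitor induced by TGF-beta, fell by 0.63 on the log2 scale (SE 0.066, adjusted p = 2.44e-06, edgeR), from 44.6 ± 3.23 CPM (SD, n = 3) to between 28.0 and 29.3 CPM in the group means. SNAI1, a transcription factor also induced by TGF-beta, rose by 0.95 (SE 0.21, adjusted p = 0.00458), from 1.81 ± 0.197 CPM to between 3.35 and 3.57 CPM. The list therefore held genes in both directions, and its members respond to other inputs as well. CDKN1A, another cell-cycle inhibitor, was higher with miR-1 (0.29, SE 0.049, adjusted p = 0.000277) and miR-155 (0.52, SE 0.095, adjusted p = 0.00178) and lower with miR-122 (-0.32, SE 0.051, adjusted p = 0.000302). It was also lower with miR-302a (-0.37, adjusted p = 0.0233, edgeR), from 72.7 ± 3.18 CPM to 56.4 ± 6.92 CPM (SD, n = 3), but did not pass with miR-372 or miR-373.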

How the data were processed

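Libraries were poly(A)-selected and strand-specific. Per the study's methods and the labels, reads were aligned to hg19 with TopHat2 2.1.1 and counted over exons by strand with featureCounts (mapping quality of at least 50), and the authors deposited raw counts per gene. A deposited length column gave RPKM. Tables of the authors' own comparisons (log2 fold changes, p-values and q-values) were not used. No per-sample column was left unused (0).

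Groups and replicate numbers came from the labels. Genes were matched by identifier to GENCODE on GRCh37, the basis of hg19 (28543 of 29794 had a symbol). The test was run by edgeR 4.0.16 under R 4.3.3 (filterByExpr with a minimum count of 10, TMM, quasi-likelihood fit of all groups of a batch, prior count of 0.125 for fold changes, 95% intervals from the same fit). The submitters' processing notes name edgeR 3.24.3. Likeness to TGFBR2 used log2(CPM + 0.5) of genes with a mean of at least 1. Seed matches were sought in the longest annotated 3′UTR. The sequence of a further BMPR2 match is not reported here.

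The receptors, lists and rules were chosen with earlier results of these data known. Named were all 10 receptors, at most 2 called genes per list and direction in each comparison, and the 5 genes most like TGFBR2. Replicate numbers were checked as pairs by correlating deviations from group means across genes. Of the pairs of groups set against each other, all 3 correlations were above 0.1 for miR-302a with miR-372 (0.161 to 0.334), miR-155 with miR-302a (0.115 to 0.194), miR-155 with miR-372 (0.311 to 0.681) and miR-133a with miR-372 (0.194 to 0.355). The block left the receptors called at 0 within the seed family and at 6 for the seed family against miR-133a and miR-155. Replicates differed by more than counting noise (chi-square per degree of freedom of 1.83 to 35.7). Functions were tested on simulated data. Alternatives were DESeq2 1.42.0, its size factors, the likelihood ratio test, other filters, fewer groups, a replicate block, other definitions of a match, CPM without TMM, and leaving out each library or the 3 that stood apart.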

Additional observations from a re-analysis of the deposited data

Results flagged for a closer look

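Effects of the same contrast with the empty vector differed between miRNAs, by a direct test, for 8 pairs of a receptor and a comparison. Between miR-1 and miR-122 these were TGFBR1, with a log2 difference of 0.23, and TGFBR3, with -0.43. Between the mean of the family that shares the miR-302a seed and the mean of miR-133a and miR-155 these were TGFBR2 (-1.04), BMPR2 (-0.55), ACVR1B (0.21), TGFBR3 (0.45), TGFBR1 (0.50) and ACVR2B (0.71). The signs are those of the miRNA or mean named earlier minus the other. Against the empty vector, ACVR1B passed with neither miR-133a, miR-155 nor the mean of the family. With 2 or 3 libraries a group, no test for an outlying value within a group was run on single receptors.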

How the results depend on the processing

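No called log2 fold change of a receptor or named pathway gene changed sign under any alternative, and TGFBR2 passed with miR-302a, miR-372 and miR-373 under each. The count of receptors called with miR-122 was 1 and became 0 with DESeq2, in a fit of only the groups compared and with the replicate block. The count with miR-133a went from 2 to 1 with no filter, and the count with miR-155 went from 2 to 1 with no filter and to 0 in a fit of only the groups compared. With the replicate block, whose numbers do not pair the miRNA libraries with the empty vector libraries, miR-1 had 3 receptors called in place of 4 and miR-373 had 4 in place of 3, and the counts of the comparisons other than these and miR-122 did not move. With replicate 2 of miR-155, miR-302a and miR-372 left out together, an alternative added after seeing the data, the count was 1 for miR-155, 4 for miR-373 and 5 for the mean of the seed family, and the counts of the other comparisons of batch 2 did not move. Genes called among all genes rose with it from 750 to 2277 for miR-133a, 1107 to 3430 for miR-302a, 721 to 1695 for miR-373 and 2164 to 3823 for the mean of the seed family. With DESeq2 they fell from 3520 to 1787 for miR-1, 849 to 405 for miR-122 and 4481 to 2542 for miR-1 against miR-122. In a fit of only the groups compared they were 2349 for miR-133a and, from 1599, 811 for miR-372, and with the replicate block they were 1308 for miR-133a, 1122 for miR-373 and, from 1073, 1663 for miR-155. The shares of all genes set beside the receptor counts therefore depend on the fit, and also moved by over 1.5 times without some single libraries.

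Without each library in turn, the count ranged from 3 to 4 for miR-1, 0 to 1 for miR-122, 0 to 2 for miR-155, 3 to 4 for miR-372, 2 to 3 for miR-373 and 3 to 4 for the mean of the seed family, was 1 for miR-133a and 3 for miR-302a in every case, was 6 for the seed family against miR-133a and miR-155, ranged from 2 to 3 for miR-1 against miR-122 and was 0 for the pairs within the seed family. In batch 1 this leaves a library alone in its group, which is then assumed to vary like the others. Of the 50 pairs of a receptor and a seed, 27 had a 3′UTR match, 16 with 8mer and 7mer-m8 matches only and 2 with 8mer matches only.

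Some calls against the empty vector lie near the threshold or were lost without some single library, and rest on 2 or 3 libraries a group. They are those for ACVR2B in batch 2 and with miR-122, and for TGFBR3 with miR-133a and miR-373. The others are those for TGFBR1 with miR-155 and for ACVR1B with miR-1. TGFBR2 had as few as 107 counts in a library. The annotation searched for matches is later than the one the counts were made with, and the 3′UTR that these cells use was not measured.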

Other observations

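Some receptors had an 8mer match in the coding sequence. For miR-122 these were TGFBR2, with a log2 fold change of 0.03 (95% interval -0.14 to 0.20), and ACVR1, which also has a 7mer-m8 match in its 3′UTR, with -0.12 (-0.35 to 0.11, adjusted p = 0.611, edgeR). For miR-133a this was ACVR1B, with -0.22 (-0.42 to -0.030, adjusted p = 0.177, and 0.0540 with the 3 libraries that stood apart left out). None of these 3 receptors passed the adjusted threshold.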
